A study of Mus musculus with 2 samples.

Results

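The genes described here encode the proteins of the cytosolic ribosome. They were chosen by symbol (Rpl and Rps followed by a number, together with Rplp0, Rplp1, Rplp2 and Rpsa, without the Rps6 kinases) and by a minimum of 200 unique molecular identifiers (UMIs, each a tag of 1 captured transcript) over both libraries. Of 84 such symbols in a feature table of 32285 genes, 82 passed: 50 of the large subunit and 32 of the small subunit. Rpl3l, with 3 UMIs, and Rpl10l, with 0, did not pass.

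Droplet-based single-cell libraries (10x Genomics) were made from live eGFP-positive cells sorted from the small intestine of Il23r-eGFP mice, a knock-in reporter of the receptor for the cytokine IL-23. One library held unstimulated cells and the other held cells given recombinant mouse IL-23 for 2 h, and every cell of both carried the reporter genotype. The sources used here do not give the strain, age or number of the animals, nor whether the unstimulated cells were incubated. Because each treatment is 1 library, no difference below has a test or a replicate check, and every interval covers counting error only.

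A ribosome joins a small subunit, which reads the messenger RNA, to a large subunit, which forms the peptide bond, and each protein of either subunit is normally made in step with the others. Messenger RNAs of ribosomal proteins typically begin with a C followed by a run of pyrimidines, the 5′ terminal oligopyrimidine (TOP) tract, through which the mTOR pathway controls their translation. They are among the most abundant messages of lymphocytes, and some members have paralogs that are used unequally between tissues.

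The start of the messages is shown first because this tract is the sequence feature the family is known for. RefSeq's table of promoters on GRCm38.p6 had an entry for 62 of the 82 members. A C followed by at least 7 bases that were C or T lay within 25 bases of an annotated start, on the coding strand, in 33 of the 62 (53.2%), against 17.7% of 27025 genes in the same table. On the other strand the figures were 8.06% and 19.6%. Windows of 30 bases around the start of 6 members follow, from Rpl7a (chr2:26910792-26910821, plus strand), Rpl35 (chr2:39005117-39005146, minus), Rps6 (chr4:86857353-86857382, minus), Rplp2 (chr7:141447636-141447665, plus), Rps18 (chr17:33955651-33955680, minus) and Rpl38 (chr11:114668565-114668594, plus), with the pyrimidine run in capitals.
Rpl7a: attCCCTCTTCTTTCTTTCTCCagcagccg
Rpl35: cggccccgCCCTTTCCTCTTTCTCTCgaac
Rps6: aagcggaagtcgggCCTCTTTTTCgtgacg
Rplp2: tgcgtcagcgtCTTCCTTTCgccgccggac
Rps18: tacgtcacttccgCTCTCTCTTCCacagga
Rpl38: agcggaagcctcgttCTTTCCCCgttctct

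No such run was found in the windows of Rpl41 (chr10:128549154-128549183, minus), Rpl10 (chrX:74270801-74270830, plus) or Rps28 (chr17:33824548-33824577, minus), which are shown because their levels stood apart between the libraries. Of the other members at least 1.2-fold apart between the libraries in all kept cells, Rpl38 and Rps27 had a run and Rpl6 and Rps21 had none. Rps29 had no promoter entry. Annotated starts can lie some bases from the true ones, so a match is a description. The lack of a match says only that such a run is not in the window.
Rpl41: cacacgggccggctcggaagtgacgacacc
Rpl10: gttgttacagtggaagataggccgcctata
Rps28: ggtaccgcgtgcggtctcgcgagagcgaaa

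In all kept cells the median log2 ratio of IL-23 over unstimulated was 0.03 for the 32 measured members with a run and 0.02 for the 29 without. Between cell groups the gap was widest for Cd3e over Ccr6 cells, 0.16 with a run against 0.22 without in the unstimulated library and 0.16 against 0.21 with IL-23. These medians were not tested against each other. Among other gene groups the run was found in 6 of 16 TOP translation factors (37.5%), 4 of 25 nuclear-encoded respiratory chain genes (16.0%) and 0 of 11 proteasome core genes.

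The unstimulated library held 11096 barcodes and the IL-23 library 10440, of which 10790 and 9251 were kept (500 or more genes detected, no more than 10% of UMIs mitochondrial), with 58148889 and 61359895 UMIs. Median depth was 4928 UMIs per kept cell without and 6087 with IL-23, and 29 barcodes occurred in both libraries. Il22, the main cytokine of these cells and a check of the treatment labels, stood at 5529 CPM (UMIs of a gene scaled to a fixed library total) without and 25658 CPM with IL-23. Mitochondrial genes took 2.64% and 3.25% of UMIs.

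The cells were described in 3 groups by their own transcripts. Ncr1 cells had no UMI of the CD3 chain genes Cd3d, Cd3e and Cd3g, at least 1 UMI of Ncr1 (the receptor NKp46 of one subset of group 3 innate lymphoid cells, ILC3s) and none of Ccr6. Ccr6 cells, named for the chemokine receptor of another ILC3 subset, had the reverse. Cd3e cells had at least 1 UMI of Cd3e, part of the T cell receptor complex. The numbers of cells, unstimulated and then IL-23, were 1052 and 1258 (Ncr1), 1535 and 1464 (Ccr6) and 495 and 430 (Cd3e). Most kept cells, 7440 and 5802, had none of these transcripts. Of the Cd3e cells, 89 and 85 also held a UMI of Ncr1 or Ccr6, and no doublet caller was run. The summed level of 10 T cell markers was 3542 and 3078 CPM in Cd3e cells, 687 and 520 CPM in Ncr1 cells, and 249 and 201 CPM in Ccr6 cells. The CD3 chains were at 0 in both ILC groups by construction.

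Ribosomal protein transcripts made up about the same share of UMIs with and without IL-23, and a larger share in Cd3e cells than in either ILC group. Over all kept cells the share was 20.40% of UMIs without IL-23 (exact binomial 95% interval 20.38 to 20.41) and 20.19% with it (20.18 to 20.20). Ncr1 cells had the lowest share of the 3 groups, 18.78% without (18.75 to 18.81) and 18.75% with IL-23 (18.72 to 18.77). Ccr6 cells lay above them at 20.24% (20.21 to 20.27) and 20.04% (20.02 to 20.07). Cd3e cells had the highest share, 22.83% (22.78 to 22.87) and 22.75% (22.70 to 22.79). The order of the 3 groups was the same in both libraries. Cells with neither Ncr1 nor Ccr6 nor CD3 transcripts had 20.5% and 20.4%.

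**Figure D1:**
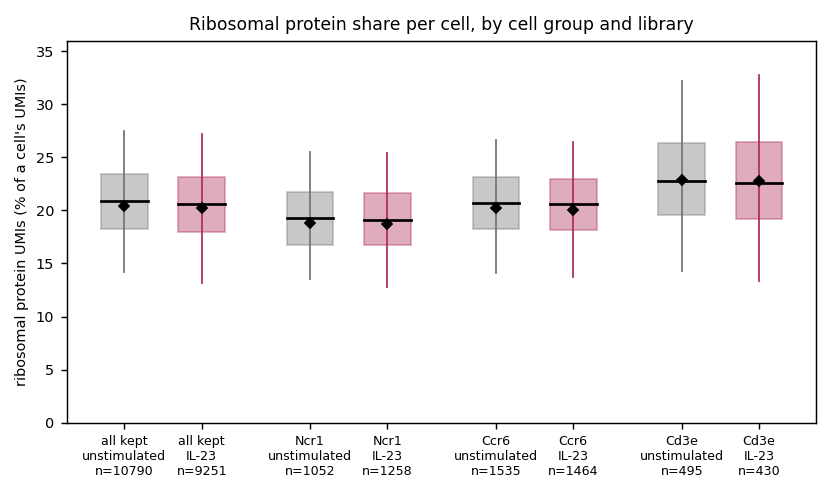
Ribosomal protein UMIs as a percentage of each cell's UMIs, by cell group and library, with the number of cells under each box. Boxes span the 25th to 75th percentiles over cells, lines the 5th to 95th, bars mark the median and diamonds the share of summed UMIs; the medians are 22.7% and 22.6% in Cd3e cells and 19.2% and 19.1% in Ncr1 cells, and the boxes of all groups overlap.

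The difference between the libraries was -0.21 percentage points in all kept cells, -0.03 in Ncr1, -0.20 in Ccr6 and -0.08 in Cd3e cells, and its direction depended on the processing. In cells of 3000 to 8000 UMIs it was 0.30, 0.48, 0.28 and -0.59 percentage points in the same order. With mitochondrial and IL-23 response genes left out of the total it was 0.44, 0.68, 0.41 and 0.40. The share also differed with depth within a library: in unstimulated cells it was 17.5% under 2000 UMIs, 23.1% at 2000 to 4000 UMIs and 17.8% at 12000 or more, and with IL-23 it was 13.4%, 21.6% and 18.7%. Barcodes that the filter left out had 5.45% and 9.49%.

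The cell groups differed in depth and in other transcripts as well as in ribosomal protein share. Cd3e cells had the highest median depth, 6355 and 7421.5 UMIs, against 5925.5 and 7286.5 in Ncr1 and 4995 and 6220 in Ccr6 cells. The summed level of 9 B and plasma cell markers was 1845 CPM in unstimulated Ncr1 cells and 1740 CPM in Ccr6 cells with IL-23, and between 9.79 and 37.4 CPM in the other 4 sums. Macrophage and dendritic markers, mostly Fcer1g, which innate lymphoid cells also express, summed to 467 to 626 CPM in the ILC groups and 79.9 to 85.9 CPM in Cd3e cells. The part of depth and of these transcripts in the shares was not tested.

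Members ranged widely in level. In unstimulated kept cells the highest stood at 7363 CPM (Rps29), the median at 2486 CPM and the lowest at 3.25 CPM (Rpl39l), and 73 of 82 exceeded 1000 CPM. With IL-23 the highest was 5351 CPM (Rps24), the median 2457 CPM and the lowest 3.11 CPM. These are UMIs per gene not divided by length, and a UMI counts a transcript once whatever its length. The 10 most abundant members held 23.4% of the family's UMIs without and 21.9% with IL-23. Small-subunit members together took 9.21% of all UMIs without and 8.87% with IL-23, and large-subunit members 11.2% and 11.3%.

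Between the libraries most members kept their relative level, while Rps29, Rps28, Rpl38, Rpl6, Rps27 and Rps21 were lower with IL-23 and Rpl41 was higher. Of 81 measured members (with 20 or more UMIs in all and a level of 10 CPM in either library; Rpl39l was below this), 6 were at least 1.2-fold lower and 1 was at least 1.2-fold higher in all kept cells. Over all 7049 measured genes the shares that passed the same sizes were 22.1% lower and 8.48% higher, so the members' shares, 7.41% and 1.23%, lay below this background in both directions. The background takes in genes from 10 CPM, where counting error is larger than at the level of most members. The share among other genes of similar level was not counted. At 1.5-fold, 1 member was lower (all genes 3.53%) and none was higher (all genes 4.0%). The median log2 ratio was 0.02 over members, -0.11 over all measured genes and 0.01 over 188 other genes of at least 500 CPM. Under TMM scaling, which aligns the bulk of genes between sums, the all-gene median moved by 0.12, the members' median was 0.14, and 9 members were higher and 3 lower (all genes 12.8% and 11.2%).

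The same pattern was seen within each cell group. In Ncr1 cells 6 members were lower and 2 higher at 1.2-fold (all genes 29.1% and 11.0%), in Ccr6 cells 6 and 1 (25.3% and 7.57%), and in Cd3e cells 6 and 1 (25.3% and 14.8%). The 6 lower genes were Rps29, Rps28, Rpl38, Rpl6, Rps27 and Rps21 in each group, and Rpl41 was the highest in each. Under TMM scaling the counts lower and higher became 3 and 17 in Ncr1, 3 and 8 in Ccr6, and 3 and 4 in Cd3e cells (all genes 15.6% and 18.7%, 12.9% and 13.2%, 18.3% and 19.5%). Over the 81 members, the log2 ratio spanned a median of 0.03 between the 3 cell groups and less than 0.1 for 78. The cell groups share the same 2 libraries, so anything that differs between the libraries enters all of them.

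**Figure D2:**
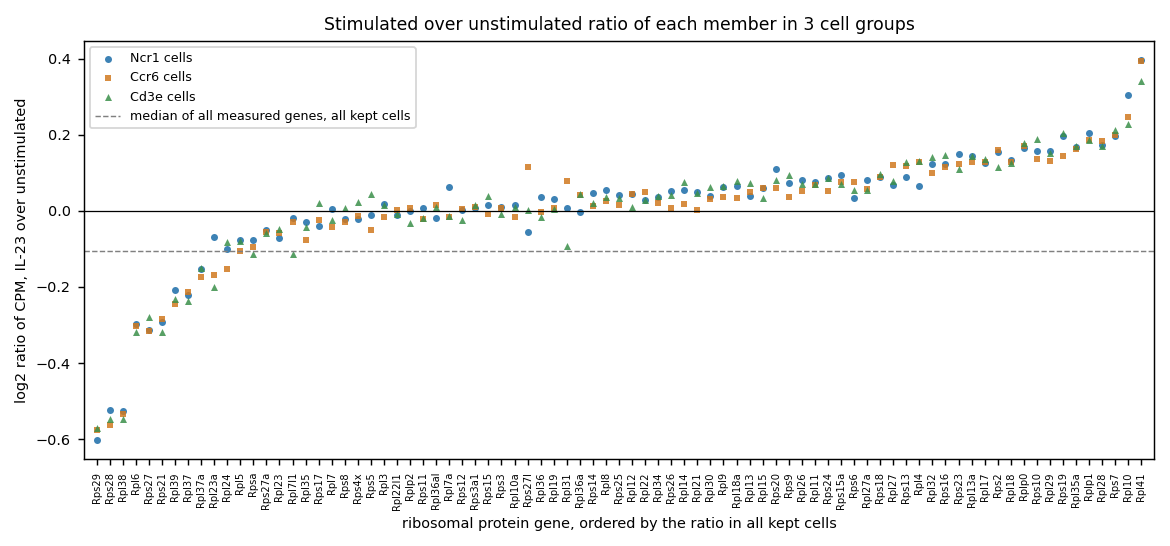
Log2 ratio of CPM, IL-23 over unstimulated, for each of the 81 measured ribosomal protein genes in Ncr1 (circles), Ccr6 (squares) and Cd3e cells (triangles), ordered by the ratio in all kept cells. The 3 symbols of a gene lie close together; Rps29, Rps28 and Rpl38 lie below -0.5 in each group, Rpl41 above 0.3, and the dashed line is the median of all measured genes at -0.11.

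Rps29, a small zinc-binding protein of the small subunit, was the most abundant member without IL-23 and the member with the lowest ratio. It stood at 7025, 7207 and 8272 CPM in unstimulated Ncr1, Ccr6 and Cd3e cells and at 4625, 4834 and 5571 CPM with IL-23. The level was lower with IL-23 in each group, though the groups share 1 library per treatment and are not replicates. The log2 ratio of Rps29 was -0.60 in all kept cells.

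Rps28, another short protein of the small subunit, stood at 3042, 3688 and 4151 CPM in the 3 unstimulated groups and at 2116, 2494 and 2843 CPM with IL-23 (log2 ratio -0.55 in all kept cells). Rpl38, a large-subunit protein best known for its part in the translation of Hox messages in mouse embryos, stood at 3427, 3408 and 4206 CPM without and 2382, 2352 and 2879 CPM with IL-23 (log2 ratio -0.54). For both genes the level was lower with IL-23 in each of the 3 groups, which are not replicates. The 3 genes with the lowest ratios lie on different chromosomes, 12, 17 and 11.

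Rpl41 encodes the shortest protein of the ribosome, a very basic peptide of the large subunit. It stood at 2554, 2600 and 3065 CPM in unstimulated Ncr1, Ccr6 and Cd3e cells and at 3363, 3414 and 3883 CPM with IL-23. In each group the level was higher with IL-23, though the groups share the same libraries and are not replicates. The log2 ratio of Rpl41 was 0.37 in all kept cells, the highest of the 81.

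The coding sequences of Rpl41, Rps28 and Rpl38 are printed because they are among the shortest of the family and stood at the ends of its range of ratios. They come from the GENCODE vM21 annotation of GRCm38, which places the genes at chr10:128548114-128549305 (Rpl41, minus strand), chr17:33819027-33824562 (Rps28, minus) and chr11:114668524-114672331 (Rpl38, plus), and capitals mark the start and stop codons.
Rpl41: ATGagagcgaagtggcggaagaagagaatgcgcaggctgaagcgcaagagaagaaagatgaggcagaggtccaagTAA
Rps28: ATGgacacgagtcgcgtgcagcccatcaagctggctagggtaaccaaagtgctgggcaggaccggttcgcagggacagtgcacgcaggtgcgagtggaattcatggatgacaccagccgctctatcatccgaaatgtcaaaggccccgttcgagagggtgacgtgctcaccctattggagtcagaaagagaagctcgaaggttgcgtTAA
Rpl38: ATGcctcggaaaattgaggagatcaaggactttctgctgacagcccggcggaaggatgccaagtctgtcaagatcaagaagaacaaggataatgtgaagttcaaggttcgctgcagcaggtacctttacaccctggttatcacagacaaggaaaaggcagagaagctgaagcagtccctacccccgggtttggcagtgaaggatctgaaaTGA

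Coding length set most of the low members apart, by a limit of 300 nucleotides (nt, stop codon not counted) chosen after the values were seen. Of the 9 members with the lowest ratios, 8 had coding sequences under 300 nt: Rps29 (168 nt), Rps28 (207), Rpl38 (210), Rps27 (252), Rps21 (249), Rpl39 (153), Rpl37 (291) and Rpl37a (276). Rpl41 (75 nt) and Rps27l (252 nt, log2 ratio 0.01) were as short and were not low, and Rpl6 (888 nt) was low and not short. The 11 members under 300 nt took 3.78% of UMIs without and 3.05% with IL-23, while the other 71 took 16.6% and 17.1%.

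Short coding sequence did not go with low ratios among other genes. The median log2 ratio was -0.27 for the 10 measured members under 300 nt and -0.09 for 183 other measured genes under 300 nt, close to the -0.11 of all genes. Of these 183 genes 19.1% were at least 1.2-fold lower. Over all 81 members Spearman's rho between coding length and ratio was 0.15, a description over genes that share 2 libraries. Total transcript length was not used.

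**Figure D3:**
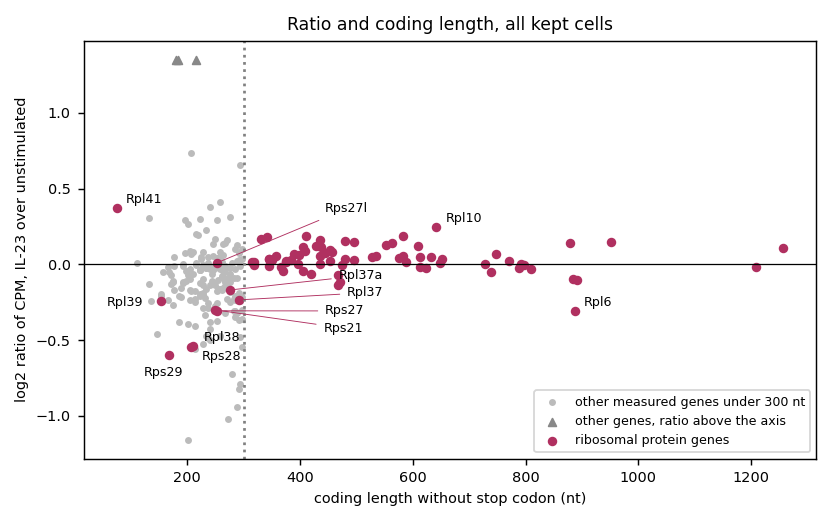
Log2 ratio of CPM, IL-23 over unstimulated, in all kept cells against coding length in nucleotides, for the 81 measured ribosomal protein genes (dark points) and the 183 other measured genes under 300 nt (grey points; triangles mark 3 genes above the axis). Members of 300 nt or more lie between -0.13 (Rpl23a) and 0.19 (Rps7) apart from Rpl6 at -0.31 and Rpl10 at 0.25, and 8 of the 10 shorter members lie below -0.1.

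Rps27, a zinc-finger protein of the small subunit, had 6379 CPM without and 5157 CPM with IL-23 (log2 ratio -0.31), but its reads may be shared with the copy Rps27rt, so its value is uncertain. Rps27rt, outside the rule, stood at 126 and 155 CPM. Rps21, a small-subunit protein, had 4231 and 3435 CPM (-0.30), and Rpl6, a large-subunit protein, 3227 and 2608 CPM (-0.31). Each of these 3 genes was also lower with IL-23 in all 3 cell groups, between -0.28 and -0.32. Under TMM scaling they lay between -0.15 and -0.25 in the 3 cell groups and no longer passed 1.2-fold.

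Rpl10, a late-joining protein of the large subunit encoded on the X chromosome, stood at 2534 CPM without and 3005 CPM with IL-23 (log2 ratio 0.25). Its value too is uncertain, because the pseudogene row Rpl10-ps3 had 82.2 and 59.6 CPM. The other members with the highest ratios in all kept cells were Rps7 (0.19), Rpl28 (0.18), Rplp1 (0.18) and Rpl35a (0.17), all below 1.2-fold.

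The stalk of the large subunit, through which elongation factors are recruited, is built from Rplp0, Rplp1 and Rplp2. Rplp0 stood at 2746, 2588 and 3541 CPM in unstimulated Ncr1, Ccr6 and Cd3e cells and at 3082, 2913 and 4007 CPM with IL-23. Rplp1 stood at 3961, 4196 and 5247 CPM without and 4568, 4774 and 5966 CPM with IL-23. Rplp2 stood at 2347, 2365 and 3035 CPM without and 2345, 2375 and 2971 CPM with IL-23. The log2 ratios in all kept cells were 0.14 (Rplp0), 0.18 (Rplp1) and -0.01 (Rplp2), and none of the 3 passed 1.2-fold in any cell group.

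Rps6, the small-subunit protein phosphorylated by S6 kinase downstream of mTOR, had 1353 CPM without and 1419 CPM with IL-23 (log2 ratio 0.07). Rpsa, also known as the laminin receptor precursor, had 2700 and 2522 CPM (-0.10). Neither passed 1.2-fold, and Rpsa turned to 0.02 under TMM scaling.

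The other gene lists are to be read against 8.48% of all measured genes higher and 22.1% lower, with a median of -0.11. In the list of TOP translation factors the pyrimidine run was found in 6 of 16 genes with a promoter entry. Of the 23 measured, 0 were at least 1.2-fold higher and 4 lower with IL-23 (median log2 ratio -0.04). Pabpc1, the poly(A)-binding protein, was among the 4, with 1184 CPM without and 944 CPM with IL-23 (-0.33), and so was Gas5, a non-coding host of small nucleolar RNAs, with 1490 and 1214 CPM (-0.30). Of 29 measured ribosome biogenesis genes 2 were higher and 3 lower (median -0.05), and of 26 initiation factors and their regulators 1 was higher and 5 lower (median 0.01). Of 32 respiratory chain genes 0 were higher and 1 lower (-0.03), and none of 14 proteasome core genes passed 1.2-fold in either direction (-0.04). All 10 genes of an IL-23 response list were higher (median 2.54). That list was chosen with earlier results of these data known, so its count is not an independent check.

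Cd3e cells had higher levels of most ribosomal protein genes than Ncr1 cells, in both libraries. In the unstimulated library 40 of 81 members were at least 1.2-fold higher in Cd3e than in Ncr1 cells and 1 was lower, against 36.6% and 24.8% of all measured genes. In the IL-23 library 42 were higher and 1 lower (all genes 40.5% and 22.6%). The median log2 ratio over members was 0.26 and 0.27, over all genes 0.09 and 0.14, and over 161 other genes of at least 500 CPM -0.13 and -0.12. The ratio was positive in both libraries for 78 members and negative in both for 3, Rpl10, Rpl22l1 and Rpl7l1. Of all measured genes 56.7% without and 60.4% with IL-23 had a positive ratio. Under other processing choices the Rpl10 ratio without IL-23 lay between -0.20 and 0.02. TMM scaling moved the all-gene median by -0.18 and -0.25, which left the members' median at 0.08 and 0.02 and the counts at 10 higher and 2 lower without IL-23 and 3 and 3 with it (all genes 24.6% and 38.2%, 23.7% and 39.7%).

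The members that led this comparison were Rpl12, a large-subunit protein at the base of the stalk, and Rpl36a, Rpl13a and Rpl32 of the large subunit. The Rpl36a value is uncertain because of its similar copy Rpl36al. Rpl12 stood at 1800 CPM in Ncr1, 1637 CPM in Ccr6 and 2799 CPM in Cd3e cells without IL-23, and at 1855, 1687 and 2818 CPM with it. The Cd3e level lay above both ILC levels in each library, with a log2 ratio over Ncr1 cells of 0.64 and 0.60. The ratios over Ncr1 cells, without and with IL-23, were 0.57 and 0.62 for Rpl36a, 0.56 and 0.55 for Rpl13a and 0.48 and 0.50 for Rpl32. Rpsa, with 2590 CPM in Ncr1 and 3656 CPM in Cd3e cells without IL-23, had ratios of 0.50 and 0.46.

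Against Ccr6 cells the Cd3e cells were also higher for most members, by less. The median log2 ratio was 0.18 in both libraries (all genes -0.01 and 0.05). Over other genes of at least 500 CPM the median was -0.04 without (150 genes) and -0.02 with IL-23 (151 genes). Of 81 members 27 were at least 1.2-fold higher and 4 lower without IL-23 (all genes 33.8% and 32.4%), and 28 and 3 with it (36.8% and 29.7%). The share of members higher was thus near the all-gene background, which takes in genes from 10 CPM, and the share lower was below it. TMM scaling gave 18 higher and 4 lower without IL-23 and 12 and 5 with it (all genes 30.0% and 36.6%, 30.7% and 36.3%). Both libraries gave the same sign for 80 members, 67 positive and 13 negative. Of all measured genes 49.4% without and 53.6% with IL-23 had a positive ratio. Rpl12 led again, at 0.77 and 0.74, followed by Rpsa at 0.58 and 0.57, Rpl13a at 0.51 and 0.52, and Rpl10a, a protein of the L1 stalk, at 0.45 and 0.48.

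Some members were lower in Cd3e than in Ccr6 cells. Rpl10 had 1968 and 2306 CPM in Cd3e cells, without and with IL-23, against 2979 and 3532 CPM in Ccr6 cells (log2 ratio -0.60 and -0.61). The Rpl10 value is uncertain because of the pseudogene row Rpl10-ps3. Rpl7l1, a paralog of Rpl7, had 98.3 and 90.7 CPM against 142 and 139 CPM (-0.53 and -0.61). Rpl22l1, the paralog of Rpl22, had 798 and 794 CPM against 992 and 992 CPM (-0.31 and -0.32), and Rpl21, a large-subunit protein, 3216 and 3319 CPM against 3935 and 3944 CPM (-0.29 and -0.25). Each of these 4 genes was lower in Cd3e than in Ccr6 cells in both libraries. All 4 were also lower in Ncr1 than in Ccr6 cells, with Rpl21 at -0.34 and -0.30 and Rpl22l1 at -0.20 and -0.21. Over Ncr1 cells, Rpl21 in Cd3e cells stood at 0.05 in both libraries.

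The TOP translation factors did not show the same size of difference. Their median log2 ratio of Cd3e over Ncr1 cells was 0.06 without and 0.10 with IL-23, and over Ccr6 cells 0.04 and 0.06. Without IL-23, 5 of 23 were higher and 4 lower than in Ncr1 cells, against 36.6% and 24.8% of all genes. Eef1a1, the elongation factor that delivers transfer RNA, stood at 5278, 5432 and 5515 CPM in unstimulated Ncr1, Ccr6 and Cd3e cells, and Gas5 at 1211, 1644 and 975 CPM. Proteasome core genes had medians of 0.13 and 0.15 over Ncr1 cells and -0.02 and 0.00 over Ccr6 cells.

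Ncr1 cells had lower levels of most members than Ccr6 cells before rescaling. The median log2 ratio of Ncr1 over Ccr6 cells was -0.10 without and -0.09 with IL-23, near the -0.08 of all genes in both. Over other genes of at least 500 CPM the median was higher, 0.03 without (185 genes) and 0.04 with IL-23 (189 genes). Under TMM scaling the members' median was 0.02 and 0.06, which turned its sign. At 1.2-fold 9 members were lower and 0 higher without IL-23 (all genes 32.5% and 21.2%), and 8 and 0 with it (30.7% and 20.5%). TMM scaling, which moved the all-gene median by 0.13 and 0.15, left 2 lower and 0 higher without IL-23 and 2 lower and 1 higher with it (all genes 23.4% and 29.4%, 20.3% and 30.9%). Both libraries gave a negative ratio for 66 members and a positive one for 9. Of all measured genes 40.9% without and 41.3% with IL-23 had a positive ratio.

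The members with the lowest ratios in this comparison were Rpl36al and Rpl10. Both values are uncertain because of similar copies, Rpl36a and Rpl10-ps3. Rpl36al stood at 547 and 540 CPM in Ncr1 cells, without and with IL-23, and at 820 and 828 CPM in Ccr6 cells (log2 ratio -0.58 and -0.62). Rpl10 stood at 2000 and 2472 CPM in Ncr1 and 2979 and 3532 CPM in Ccr6 cells (-0.57 and -0.51). These 2 genes stayed at least 1.2-fold lower under TMM scaling, and the 1 higher member with IL-23 was Rpl12. Also among the 6 lowest in both libraries were Rps26, a small-subunit protein near the messenger RNA exit, at -0.37 and -0.32, Rpl21 at -0.34 and -0.30, and Rpl36a at -0.28 and -0.33. Rps27l, at -0.14 and -0.31, was among them with IL-23 and not without. Among the 6 highest in both libraries were Rpl12 at 0.14 in both libraries, Rpl31, a large-subunit protein, at 0.13 and 0.06, Rps16, of the small subunit, at 0.09 and 0.10, Rpsa at 0.09 and 0.11, and Rplp0 at 0.09 and 0.08.

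Ribosome biogenesis genes also had lower levels in Ncr1 than in Ccr6 cells. Their median log2 ratio was -0.33 in both libraries, with 19 of 29 at least 1.2-fold lower and 0 higher without IL-23, and 15 of 28 lower and 1 higher with it. Over all genes the median was -0.08 in both, with 32.5% lower and 21.2% higher without IL-23 and 30.7% and 20.5% with it. TMM scaling raised every log2 ratio of this comparison by 0.13 and 0.15.

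**Figure D4:**
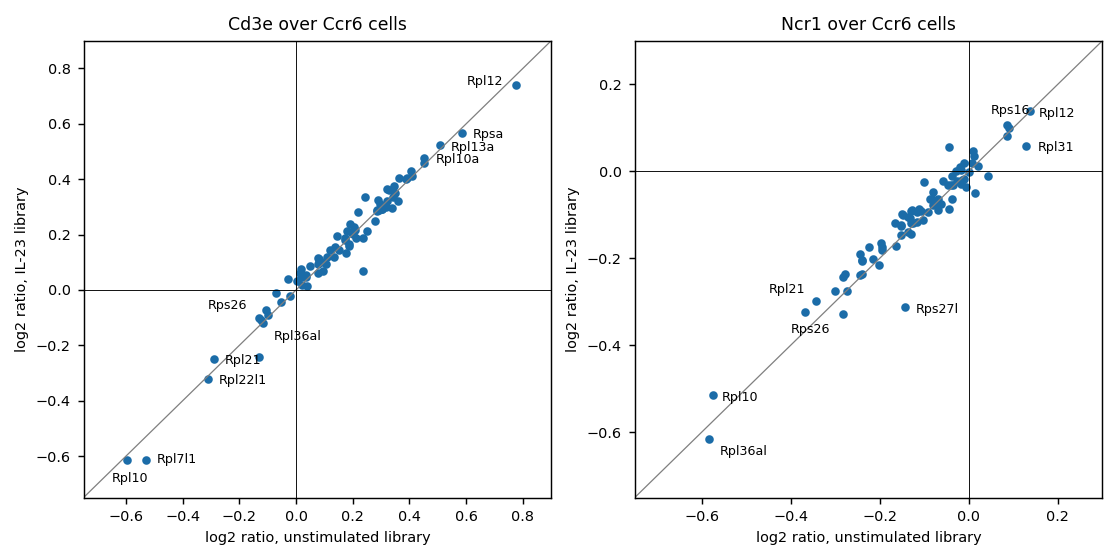
Log2 ratio of CPM between cell groups for the 81 measured ribosomal protein genes, in the unstimulated library (x axis) against the IL-23 library (y axis), for Cd3e over Ccr6 cells (left) and Ncr1 over Ccr6 cells (right). Points follow the grey line of equal values (Pearson r 0.985 and 0.961 across genes, which share each library's cell groups); Rpl12 and Rpsa lie highest on the left, and Rpl10 lies near -0.6 in both panels.

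The cell-group ratios could be read separately in each library. The median absolute difference of a member's ratio between the 2 libraries was 0.02 for each pair of cell groups. Whether the libraries came from the same animals is not given in the sources used here.

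Paralogs were present at unequal levels, and the split within a pair differed between cell groups more than between libraries for 3 of the pairs. Rpl22 is needed for the development of alpha beta T cells in mice, and Rpl22l1 is its paralog. Rpl22l1 made up 39.1% of the pair's UMIs in unstimulated Ncr1 cells (95% interval 38.3 to 39.9), 41.3% in Ccr6 cells (40.6 to 42.0) and 33.2% in Cd3e cells (32.2 to 34.2). With IL-23 these were 38.4% (37.8 to 39.1), 40.5% (39.9 to 41.1) and 32.7% (31.7 to 33.7). The intervals of Cd3e cells did not overlap those of either ILC group.

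Rpl36al is an autosomal copy of the X-linked Rpl36a. It made up 45.0% of the pair in unstimulated Ncr1 cells (44.0 to 46.1), 50.2% in Ccr6 cells (49.4 to 51.0) and 43.3% in Cd3e cells (42.0 to 44.5), and 44.8%, 49.7% and 42.7% with IL-23. The Ccr6 value was the highest in both libraries. Rpl7l1 made up 7.55% of its pair with Rpl7 in Ncr1, 7.79% in Ccr6 and 5.24% in Cd3e cells without IL-23, and 7.45%, 7.85% and 4.94% with it.

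Rps27l, the paralog of Rps27, differed between the libraries as well. It made up 2.79%, 2.93% and 2.59% of the pair in unstimulated Ncr1, Ccr6 and Cd3e cells and 3.31%, 3.91% and 3.13% with IL-23. Over all kept cells Rps27l had 184 CPM without and 186 CPM with IL-23, while Rps27 had 6379 and 5157 CPM. Rpl39l, an autosomal copy of the X-linked Rpl39 known from testis, was near absence, with 189 and 191 UMIs over all kept cells, or 0.104% and 0.117% of the pair.

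**Figure D5:**
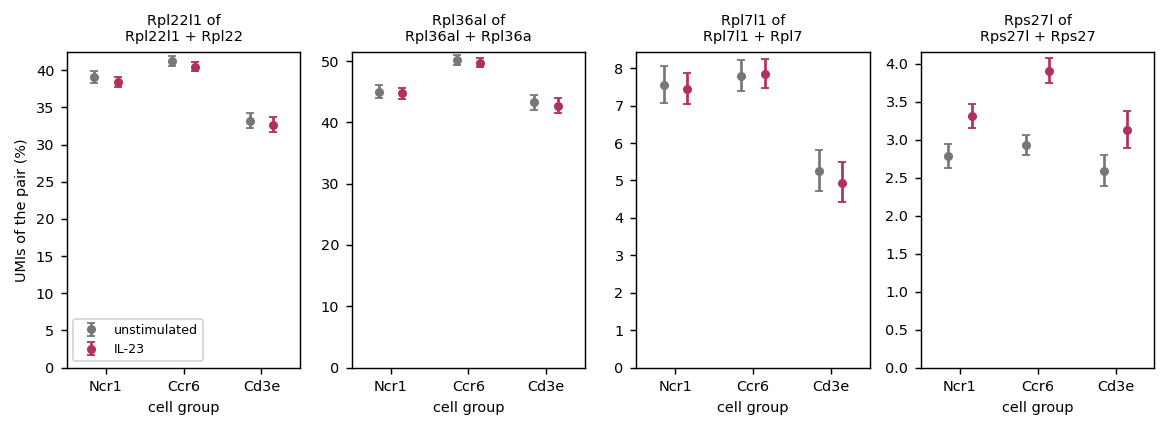
Share of a pair's UMIs that belonged to the paralog, for Rpl22l1, Rpl36al, Rpl7l1 and Rps27l, by cell group and library, with exact binomial 95% intervals that cover counting error only; each panel has its own axis from 0. Cd3e cells lie lowest in every panel, with intervals that overlap those of Ncr1 cells for Rpl36al and Rps27l. For Rps27l every IL-23 point lies above the unstimulated point of its group.

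Similar sequences limit how well counting separates a pair. The coding sequences of Rpl36al and Rpl36a were 87.9% identical over 321 bases, those of Rpl39l and Rpl39 85.3%, Rps27l and Rps27 76.1%, Rpl22l1 and Rpl22 66.9%, and Rpl7l1 and Rpl7 53.0%. The last 90 coding bases, stop codon included, are shown for the 2 pairs on which most turns, with the bases that differ in capitals. Between Rpl36a and Rpl36al 4 of these 90 bases differ, and between Rps27 and Rps27l 20 differ. How reads that match both genes were counted is not given in the sources used here, so the levels of Rpl36al and Rpl36a are uncertain.
Rpl36a: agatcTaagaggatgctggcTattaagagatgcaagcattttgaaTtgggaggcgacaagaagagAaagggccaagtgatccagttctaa
Rpl36al: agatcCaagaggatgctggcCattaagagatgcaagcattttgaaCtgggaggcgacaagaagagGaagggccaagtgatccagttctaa
Rps27: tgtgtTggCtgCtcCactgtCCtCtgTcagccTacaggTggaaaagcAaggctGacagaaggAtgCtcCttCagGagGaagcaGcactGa
Rps27l: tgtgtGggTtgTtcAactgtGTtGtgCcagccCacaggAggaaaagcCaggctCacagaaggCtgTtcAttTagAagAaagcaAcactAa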

How the data were processed

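The data were 2 10x Genomics libraries. The deposited values are whole-number UMI counts per gene and barcode, not normalized. The submitters' processing notes name Cell Ranger 3.1.0 and mm10, while the matrix headers, per the file headers, name cellranger 6.0.0; the sources used here give no cell-calling rule and no rule for ambiguous reads. Cells with 500 genes or more, and no more than 10% of UMIs mitochondrial, were kept. UMIs were summed per library and cell group, scaled to CPM, and compared as the log2 ratio with 0.5 UMI added to each sum. Sums carry exact Poisson and shares exact Clopper-Pearson 95% intervals (Python 3.11.15, scipy 1.17.1). TMM factors came from edgeR 4.0.16, used for scaling only. The ratio code was tested on simulated data. Named genes were the 6 highest and 6 lowest members per comparison, the 10 most abundant, the paralog pairs, Rplp0, Rplp1, Rplp2, Rpsa and Rps6, up to 3 at each end of another list, and genes that check labels. Coding lengths and sequences came from GENCODE vM21, start windows from RefSeq; promoter entries matched 62 of 82 members. The members and lists were chosen with earlier results of these data known. Alternatives covered cell filters, denominators, depth, marker-bearing cells and scaling.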

Additional observations from a re-analysis of the deposited data

Results flagged for a closer look

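Rpl31, a large-subunit protein, had a log2 ratio of IL-23 over unstimulated of 0.0782 in Ccr6 cells and -0.0918 in Cd3e cells, opposite directions in the 2 cell groups. With 1 library per treatment the difference was not tested. TMM scaling raised every log2 ratio by 0.118 in Ccr6 and 0.0738 in Cd3e cells, so the size of the Cd3e value depends on the scaling. Its levels were 593 and 626 CPM in Ccr6 cells and 699 and 656 CPM in Cd3e cells, without and with IL-23.

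Among rows outside the rule, 4 copies or pseudogenes of members carried UMIs. Rpl10-ps3 had 4777 UMIs without and 3657 with IL-23 (log2 ratio -0.46), opposite in direction to Rpl10 (0.25). Rps27rt had 7349 and 9502 UMIs (0.29), opposite to Rps27 (-0.31). Rpl9-ps6 had 4047 and 3385 UMIs (-0.34), while Rpl9 had a log2 ratio of 0.04. Rpl36a-ps1 had 511 and 498 UMIs (-0.11). How reads were divided between these rows and the members was not tested.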

How the results depend on the processing

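No paired analysis was possible because each treatment is 1 library, and the sources do not say whether both came from the same animals. The sign of the share difference (percentage points, IL-23 minus unstimulated) was not stable. In all kept, Ncr1, Ccr6 and Cd3e cells, in that order, it was 0.44, 0.68, 0.41 and 0.40 without mitochondrial and IL-23 response genes in the total, 0.52, 0.63, 0.50 and 0.73 without the short members, 0.30, 0.48, 0.28 and -0.59 in cells of 3000 to 8000 UMIs, 0.0607, 0.0409, 0.451 and -0.434 without cells bearing other-type markers, and -0.43, -0.29, -0.24 and -0.22 as a mean over cells. With Fcer1g not counted among those markers it was -0.12, 0.00599 and -0.21 in Ncr1, Ccr6 and Cd3e cells. A minimum of 200 genes gave -0.25 in all kept cells. A minimum of 1000 genes with 5% mitochondrial UMIs gave -0.17, -0.14 and -0.23 in all kept, Ccr6 and Cd3e cells. Groups defined by 2 UMIs gave 0.17 (Ncr1) and -0.28 (Ccr6).

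The count of members past 1.2-fold either way, 7, 8 and 7 between libraries in all kept, Ncr1 and Ccr6 cells, was 12, 20 and 11 under TMM scaling. For cell groups TMM gave 2 and 3 in place of 9 and 8 (Ncr1 over Ccr6, without and with IL-23), 12 and 6 in place of 41 and 43 (Cd3e over Ncr1), and 17 in place of 31 (Cd3e over Ccr6, IL-23). Without the short members 1, 2, 1 and 1 passed between libraries, since most of those counted are short. The other denominator gave 5 in Ncr1 cells. Without marker-bearing cells 4 passed in Ccr6 cells and 4 for Ncr1 over Ccr6 with IL-23. That setting removed 57.1% and 72.5% of kept cells, mostly through Fcer1g (3.06% and 3.55% without that gene).

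No named member past 1.2-fold changed sign in any alternative run. In all kept cells the log2 ratio of Rps29 lay between -0.60 and -0.48, of Rps28 between -0.55 and -0.43, of Rpl38 between -0.54 and -0.42 and of Rpl41 between 0.36 and 0.49. Leaving out the shared barcodes, limiting genes by 50 CPM and using no CPM limit moved no count by over 1.5 times. The alternatives on shared barcodes, short members, pseudogene rows and Fcer1g were added after seeing the data. Counting intervals are narrow, and the number of libraries is the limit.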

Other observations

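Some kept cells fell outside the 3 cell groups. The 48 unstimulated and 59 stimulated cells with UMIs of both Ncr1 and Ccr6, which had the highest median depths (9802.5 and 12243 UMIs), had 18.8% and 19.3%. Cells with Cd3d or Cd3g but no Cd3e, 220 and 238 in number, had 21.0% and 19.6%.

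Other measured genes with coding sequences under 300 nt ranged in both directions. In all kept cells the log2 ratio of IL-23 over unstimulated ran from -1.16 for mt-Atp8 to 2.43 for Hsbp1l1. These genes and Mt1, at 2.09, were named after their values were seen.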
